A study of Homo sapiens with 13 samples.

Results

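None of 10 genes of the antioxidant response and of the defence against ferroptosis was called higher or lower in SW480 cells after 6 h with the iron chelators DFO or Deferasirox or with OICR623. The 10 genes were fixed by symbol: NQO1, HMOX1, GCLC, GCLM, SRXN1, TXNRD1, OSGIN1, ME1, GPX4 and AIFM2. All 10 were found among the 18404 genes named on the array, each by 1 transcript cluster of its own. SW480 is an established human colon cancer line. RNA was hybridised to 13 Affymetrix Human Gene 1.0 ST arrays: 4 of cells in the solvent DMSO at 0.1 percent, 4 with DFO (deferoxamine) at 100 mM, 3 with Deferasirox at 50 mM and 2 with OICR623 at 10 mM. Doses are as the labels give them; they are high for cultured cells, and the unit was not checked. They also differ between the compounds, so values of different compounds stand side by side at unequal doses. The label text describes the replicates as independent experiments with this single line, and DFO and Deferasirox are chelators in clinical use, while OICR623 is known here by its code name.

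NRF2, encoded by NFE2L2, is a transcription factor that the adaptor protein KEAP1 holds at a low level through constant degradation. Oxidants and electrophiles release it, and with small MAF proteins it binds the antioxidant response element and raises genes that make glutathione, NADPH and detoxifying enzymes; BACH1 is a repressor that occupies the same kind of element and gives way when heme is bound. Ferroptosis is a form of cell death driven by iron and by peroxidised membrane lipids, which GPX4 removes with glutathione and AIFM2 (also called FSP1) counters through reduced coenzyme Q.

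The sequences below show what the element looks like beside 4 of these genes, because it is the feature that unites the targets in textbooks. The RefSeq table (GRCh38.p14) listed a window of 250 bases before to 50 bases after the start for 9 of the 10 genes; HMOX1 was not among them. The core TGACNNNGC was searched on both strands and was present in 4 of the 9 windows, those of GCLM, TXNRD1, ME1 and AIFM2, and in 13.6% of 27305 promoter windows of this length. Each stretch is written 5′ to 3′ on the strand of the gene and ends before the start; capitals mark the match, which reads as the reverse complement in GCLM and AIFM2.
GCLM (chr1:93909441-93909479, minus strand): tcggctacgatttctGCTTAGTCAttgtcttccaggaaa
TXNRD1 (chr12:104215665-104215703, plus strand): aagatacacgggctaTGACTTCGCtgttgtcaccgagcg
ME1 (chr6:83431165-83431203, minus strand): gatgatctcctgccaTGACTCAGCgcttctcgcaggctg
AIFM2 (chr10:70132826-70132862, minus strand): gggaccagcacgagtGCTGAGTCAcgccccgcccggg

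Counted from the start, the match began at base -34 in GCLM, -99 in TXNRD1, -137 in ME1 and -22 in AIFM2. TXNRD1 and ME1 each held 1 further match, from base -8 and base 12. The letters ACGTG, the core of the element bound by hypoxia-inducible factor, were found on either strand in 1 of the 9 windows, that of GPX4, and in 21.6% of all windows. These matches describe letters in a short window and say nothing of which factor was bound.

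The arrays differed in a way that the treatments do not explain, and this bears on every value. The median log2 signal of an array lay between 7.17 and 7.19 on DMSO 1 and DFO 1 (the high level), between 6.52 and 6.55 on DMSO 4, DFO 4 and Deferasirox 3 (the low level), and between 6.64 and 6.69 on the other 8 (the middle level). Changes are therefore given from limma fitted across all 18404 genes with this level as a block, and the threshold for a call was an adjusted p (Benjamini-Hochberg, over all genes) under 0.05; the level rests on the values and not on the labels. Mean signals of 10 colon epithelial and carcinoma markers ran from 4.92 for CEACAM5 to 13.02 for KRT18, those of 6 fibroblast markers from 3.27 to 7.77, of 4 endothelial markers from 5.16 to 6.19, and of 4 leukocyte markers from 3.38 for PTPRC to 9.18 for CD68. EPCAM stood at 9.68 ± 0.73 (SD, n = 4) in DMSO, a spread over arrays of all levels that includes the level. Detection calls do not come with these signals, whence no marker could be declared absent, and signals of different transcript clusters cannot be ranked against each other. DMSO 1 and DFO 1 also held exactly equal deposited values for 30.1% of genes, against at most 0.201% for any other pair of arrays; SRXN1, ME1 and AIFM2 were among them. Counts of genes and the difference of AIFM2 under DFO are therefore also given without this pair, an alternative chosen after the data were seen. DDIT4, a stress gene named outside the rule for the other genes, differed on these arrays. It rose by 3.08 under DFO, 3.03 under Deferasirox and 2.14 under OICR623 on the log2 scale (limma, adjusted p = 7.0e-08, 4.0e-07 and 6.9e-05). Earlier results of these data were known, so it is no independent check on the 10 genes.

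**Figure D1:**
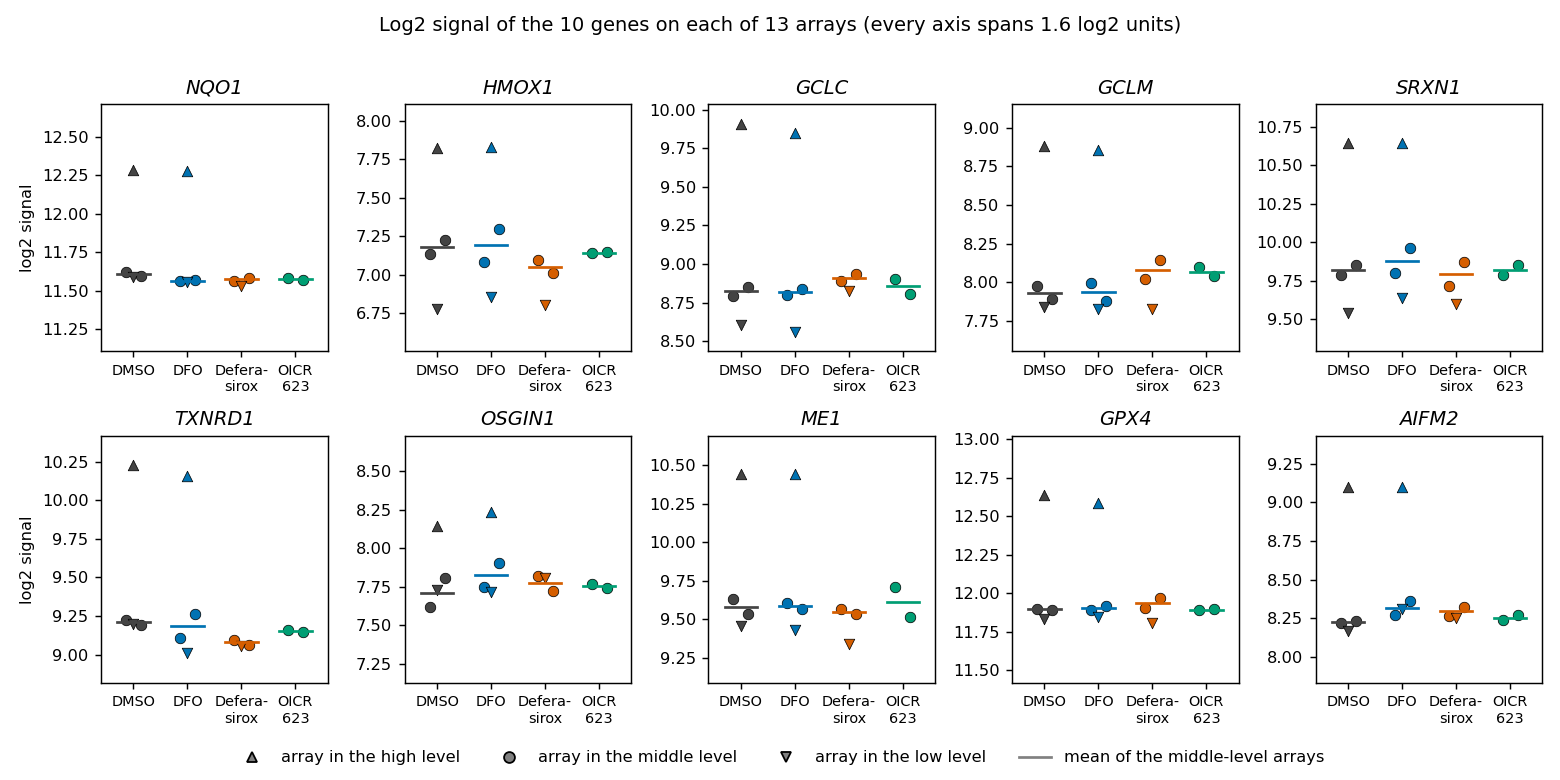
Deposited log2 signal (y axis) of each of the 10 genes on all 13 arrays by group, every panel spanning the same range; triangles pointing up mark the high level, circles the middle level, triangles pointing down the low level, and lines the mean of the middle-level arrays. In every panel DMSO 1 and DFO 1 stand above the rest. In all panels but that of OSGIN1 this gap is wider than the spread of the circles of the 4 groups. For OSGIN1 the circles run from 7.62 to 7.90, and DMSO 1 stands at 8.14.

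For each of the 10 genes the high level differed from the middle level by more than any treatment differed from DMSO. Arrays of the high level exceeded those of the middle level by 0.42 for OSGIN1 to 1.06 for GCLC, and by 0.57 in the median of all genes; arrays of the low level differed from the middle level by -0.02 for OSGIN1 and NQO1 to -0.33 for HMOX1, and by -0.15 in the median of all genes. NQO1 and OSGIN1 thus hardly moved between the middle and the low level, whereas HMOX1 and SRXN1, at -0.24, did.

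NQO1 encodes a quinone reductase that spends NADPH and is the standard readout of NRF2. Its log2 signal was 12.28, 11.62, 11.59 and 11.59 on DMSO arrays 1 to 4, 12.28, 11.56, 11.57 and 11.56 with DFO, 11.57, 11.58 and 11.53 with Deferasirox, and 11.58 and 11.57 with OICR623. On the middle level the treated arrays all lay just below both DMSO arrays, with a difference of means of -0.04 for DFO and -0.03 for the other compounds. Here and for the genes below, such positions rest on 2 DMSO arrays on the middle level and 1 on each other level. All compounds share these arrays, and the share of all genes with such positions was not counted. The fitted difference from DMSO was -0.03 for DFO (95% interval -0.10 to 0.04), -0.04 for Deferasirox (-0.11 to 0.04) and -0.03 for OICR623 (-0.12 to 0.06), the narrowest intervals of the 10 genes.

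HMOX1 encodes heme oxygenase, which splits heme and frees its iron; it is a target of NRF2 that BACH1 represses. Its signal was 7.82, 7.14, 7.22 and 6.78 in DMSO, 7.83, 7.08, 7.30 and 6.86 with DFO, 7.09, 7.01 and 6.80 with Deferasirox and 7.14 on both OICR623 arrays. DFO and OICR623 arrays overlapped with DMSO on the middle level, and both Deferasirox arrays there lay below DMSO, while on the low level Deferasirox stood 0.02 above it. The differences were 0.03 (interval -0.09 to 0.14), -0.08 (-0.21 to 0.05) and -0.02 (-0.17 to 0.13) for DFO, Deferasirox and OICR623, none of them called.

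GCLC and GCLM encode the catalytic and the modifier subunit of glutamate-cysteine ligase, the enzyme that sets the rate of glutathione synthesis. GCLC stood at 9.91, 8.79, 8.85 and 8.60 in DMSO, 9.85, 8.80, 8.84 and 8.56 with DFO, 8.89, 8.94 and 8.83 with Deferasirox, and 8.90 and 8.81 with OICR623. On the middle level both Deferasirox arrays were above both DMSO arrays, with a difference of means of 0.09. On the low level, with 1 array of each, the difference was 0.22. The fitted value was 0.13 (SE 0.05, interval 0.02 to 0.23), and it was not called (limma adjusted p = 0.18). With DFO it was -0.03 (interval -0.12 to 0.07) and with OICR623 0.04 (-0.09 to 0.16).

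GCLM stood at 8.88, 7.97, 7.89 and 7.84 in DMSO, 8.86, 7.99, 7.88 and 7.82 with DFO, 8.02, 8.14 and 7.82 with Deferasirox, and 8.10 and 8.04 with OICR623. On the middle level all 4 Deferasirox and OICR623 arrays exceeded both DMSO arrays, while on the low level Deferasirox differed from DMSO by -0.01. The difference was -0.01 with DFO (interval -0.12 to 0.10), 0.09 with Deferasirox (-0.03 to 0.21) and 0.11 with OICR623 (-0.03 to 0.25). The upper bound for OICR623, a 1.19-fold rise, was the highest of the 10 genes against DMSO.

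TXNRD1 encodes cytosolic thioredoxin reductase, a selenoprotein that passes electrons from NADPH to thioredoxin. The signal was 10.23, 9.23, 9.19 and 9.20 in DMSO, 10.16, 9.11, 9.26 and 9.01 with DFO, 9.09, 9.06 and 9.05 with Deferasirox and 9.16 and 9.15 with OICR623. On the middle level both Deferasirox arrays lay below both DMSO arrays, with a difference of means of -0.13. On the low level, with 1 array of each, the difference was -0.14. The fitted value was -0.13 (SE 0.05, interval -0.25 to -0.02; limma adjusted p = 0.19), and that lower bound, a 1.19-fold fall, was the lowest of the 10 genes against DMSO. DFO gave -0.08 (interval -0.18 to 0.02) and OICR623 -0.08 (-0.21 to 0.06).

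SRXN1 encodes sulfiredoxin, which restores overoxidised peroxiredoxins. It stood at 10.64, 9.79, 9.85 and 9.54 in DMSO, 10.64, 9.80, 9.96 and 9.64 with DFO, 9.72, 9.87 and 9.60 with Deferasirox, and 9.79 and 9.85 with OICR623. The groups overlapped on the middle level for every compound, and DMSO 1 and DFO 1 were exactly equal. DFO exceeded DMSO by 0.06 on the middle level and by 0.09 on the low level. The differences were 0.05 (interval -0.06 to 0.16), -0.01 (-0.13 to 0.12) and 0.00 (-0.14 to 0.15).

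OSGIN1, an oxidative stress-induced growth inhibitor, and ME1, the cytosolic malic enzyme that makes NADPH, complete the NRF2 targets. OSGIN1 stood at 8.14, 7.62, 7.81 and 7.73 in DMSO, 8.24, 7.75, 7.90 and 7.71 with DFO, 7.82, 7.72 and 7.81 with Deferasirox and 7.77 and 7.74 with OICR623, the groups again overlapping. Its differences were 0.08 (interval -0.04 to 0.19), 0.07 (-0.06 to 0.20) and 0.03 (-0.12 to 0.19), the widest intervals of the set. ME1 stood at 10.44, 9.63, 9.53 and 9.45 in DMSO, 10.44, 9.61, 9.57 and 9.43 with DFO, 9.57, 9.53 and 9.34 with Deferasirox, and 9.71 and 9.52 with OICR623. All 3 groups of treated arrays overlapped with DMSO on the middle level, and DMSO 1 and DFO 1 were exactly equal. DFO differed from DMSO by 0.01 on the middle level and by -0.03 on the low level. The differences were 0.00 (interval -0.11 to 0.10), -0.06 (-0.18 to 0.06) and 0.02 (-0.12 to 0.15).

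GPX4, the selenoprotein that reduces lipid peroxides in membranes, varied little. Its signal was 12.64, 11.90, 11.89 and 11.83 in DMSO, 12.59, 11.90, 11.92 and 11.85 with DFO, 11.91, 11.97 and 11.81 with Deferasirox, and 11.89 and 11.90 with OICR623. The differences were 0.00 (interval -0.08 to 0.07), 0.01 (-0.07 to 0.10) and -0.02 (-0.12 to 0.08). AIFM2 stood at 9.10, 8.22, 8.23 and 8.16 in DMSO, 9.10, 8.27, 8.36 and 8.31 with DFO, 8.26, 8.32 and 8.25 with Deferasirox, and 8.24 and 8.27 with OICR623. On the middle level all 6 treated arrays lay above both DMSO arrays, which the compounds share. How many of all genes do so was not counted. On the high level DMSO 1 and DFO 1 were exactly equal for AIFM2. Its differences of 0.08 with DFO (interval -0.0049 to 0.17; limma adjusted p = 0.36, and 0.11 with adjusted p = 0.27 without that pair), 0.06 with Deferasirox (-0.03 to 0.16) and 0.02 with OICR623 (-0.09 to 0.13) were not called.

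**Figure D2:**
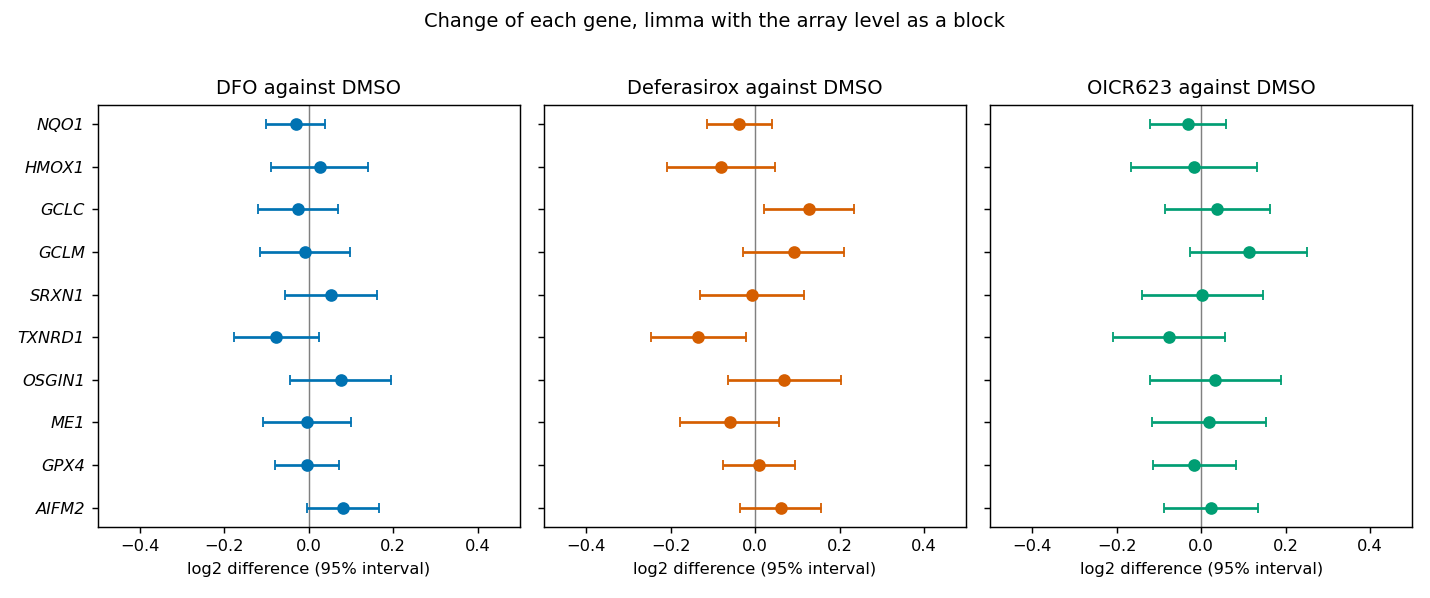
Log2 difference from DMSO (x axis) with its 95% interval for the 10 genes (y axis), 1 panel per compound, from limma with the level as a block. Of the 30 intervals, 28 include 0; those of GCLC and TXNRD1 under Deferasirox do not, and neither gene was called after correction over all genes.

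Across the set, 0 of 10 genes were called by limma in each comparison with DMSO, and 0, 2 and 0 had an unadjusted p under 0.05 under DFO, Deferasirox and OICR623, as had 15.7%, 18% and 10.7% of all genes. The same fit called 4.6% of all 18404 genes under DFO, 5.84% under Deferasirox and 0.734% under OICR623, so that a set of this size holds few called genes at the background rate as well. The lowest adjusted p among the 10 was 0.36, 0.18 and 0.59. Without DMSO 1 and DFO 1, limma again called 0 of the 10 under each compound, and 769, 986 and 173 of all genes. Then 1, 2 and 0 of the 10 had an unadjusted p under 0.05 under DFO, Deferasirox and OICR623. The intervals bound what these arrays allow: taken gene by gene, they ran from -0.18 to 0.19 under DFO, from -0.25 to 0.23 under Deferasirox and from -0.21 to 0.25 under OICR623, with the outermost bounds at 1.19-fold in both directions.

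The median size of the difference, without its sign, was 0.03 for the 10 genes against 0.05 for all genes under DFO, 0.06 against 0.06 under Deferasirox and 0.03 against 0.06 under OICR623. Of all genes, 33.2%, 20.4% and 24.9% differed from DMSO by more than the most displaced of the 10, which were AIFM2, TXNRD1 and GCLM. The smallest difference that was called for any gene was 0.14, 0.15 and 0.23, which is larger than each of these. A call rests on the adjusted p and not on size, so these values are no thresholds.

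**Figure D3:**
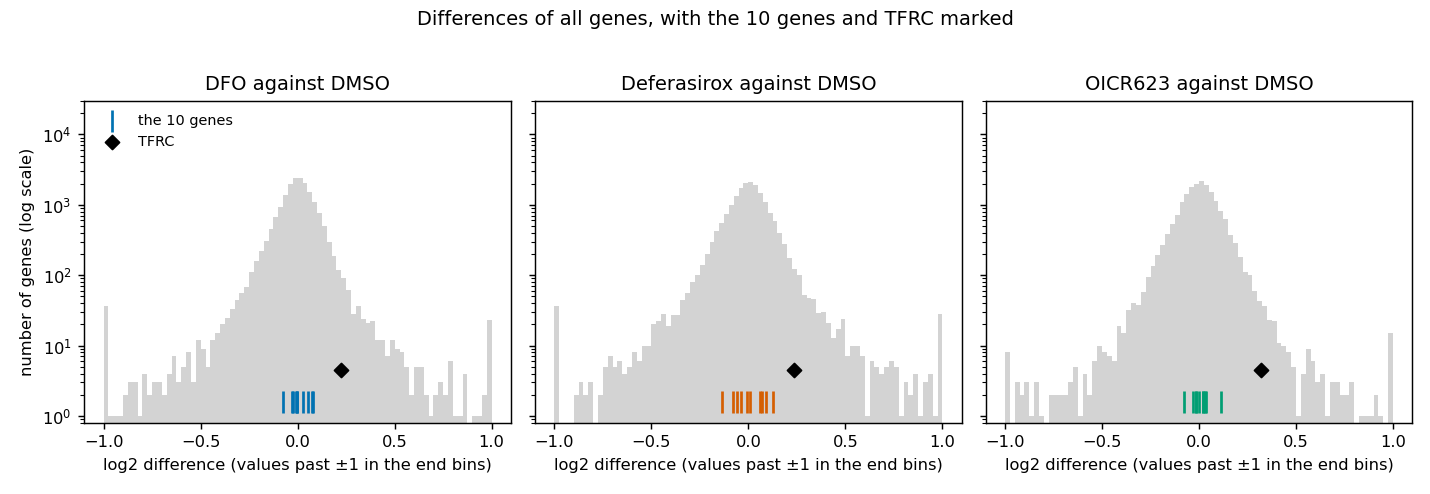
Number of genes (y axis, log scale) by log2 difference from DMSO (x axis) for all 18404 genes in grey, 1 panel per compound; coloured ticks mark the 10 genes and the black diamond TFRC, at heights without meaning. The ticks lie in the centre of each distribution, between -0.13 and 0.13, and TFRC lies to the right of them all.

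Between compounds, whose doses differ, 0 of 10 genes were called in any of the 3 pairs, against 0.0435% of all genes for Deferasirox against DFO, 0.168% for OICR623 against DFO and 0.0869% for OICR623 against Deferasirox. The largest difference was that of GCLC, 0.15 higher with Deferasirox than with DFO (interval 0.05 to 0.26; limma adjusted p = 0.29). It was the 1 value of these 30 with an unadjusted p under 0.05. Of all genes, 10%, 5.67% and 8.54% had such a p in the 3 pairs, in the same order. GCLM was 0.12 higher with OICR623 than with DFO (interval -0.02 to 0.26), and HMOX1 differed by -0.11 between Deferasirox and DFO (-0.24 to 0.02). The comparisons with DMSO share the same control arrays and are therefore not independent of each other.

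With the mean of each level removed, the 10 genes did not vary together. Over the 13 arrays the correlations between them ran as low as -0.82, for HMOX1 and GCLM, and as high as 0.74, for SRXN1 and AIFM2; arrays of a group and a level share their treatment and scale, so these are descriptions. For the gene with the lowest p in each comparison with DMSO, the 5 genes most like it over the 13 arrays were named by the same measure. They were CKB, EFEMP2, LRP2BP, BMP1 and IL4R for AIFM2 (r = 0.94 to 0.95), POLR3D, DSE, PGC, DENND3 and SEC63 for GCLC (r = 0.88 to 0.94), and MAD2L1, DRC8, RAB5B, GART and KIAA0232 for GCLM (r = 0.91 to 0.93).

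Beyond the 10 genes, 7 lists of the same pathways held 130 measured genes, of which 2 rose and 3 fell under DFO (3.85% called), 5 rose and 3 fell under Deferasirox (6.15%) and 1 rose and 0 fell under OICR623 (0.769%), shares close to those of all genes. The median difference over these genes was 0.00, 0.01 and -0.01, and 0.00 over all genes for each compound. At an unadjusted p under 0.05 the same fit held 19, 30 and 14 of the 130, beside the shares of all genes given above. Without DMSO 1 and DFO 1, 4, 7 and 0 were called. Without the level as a block limma called none of the 130 under any compound, and none of the 10. This fit called only 45, 43 and 7 of all 18404 genes under DFO, Deferasirox and OICR623. With the replicate block in place of the level none of the 130 was called over all 13 arrays, and 78, 127 and 10 of all genes were. That block joins arrays of different levels. Deferasirox 1 and OICR623 1 (middle) share a number with DMSO 1 (high), and Deferasirox 3 (low) with DMSO 3 (middle). It assumes a pairing that was not shown for these compounds, and that for DFO gave r = 0.26 on the middle level alone. By contrast, on the 8 DFO and DMSO arrays alone, where 619 of all genes were called under DFO, it called 4 of the 130. These were TRIM16, GCH1 and SEPSECS, called with the level block too, and BACH1 (limma adjusted p = 0.026), which was not; CBR1 (adjusted p = 0.053) and TFRC (adjusted p = 0.076) lost their calls.

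Of 14 measured regulators of NRF2, 0 were called under DFO or OICR623, and 2 rose under Deferasirox, where 5.84% of all genes were called. At an unadjusted p under 0.05 were 4, 5 and 3 under DFO, Deferasirox and OICR623, beside 15.7%, 18% and 10.7% of all genes. BACH1 stood at 8.61, 8.03, 7.99 and 7.91 in DMSO, 8.82, 8.34, 8.17 and 8.21 with DFO, 8.32, 8.36 and 8.29 with Deferasirox and 8.47 and 8.10 with OICR623. In each level the treated arrays were all above DMSO, and BACH1 rose by 0.34 under Deferasirox (SE 0.08, limma adjusted p = 0.028) with differences of 0.25 under DFO (adjusted p = 0.079) and 0.28 under OICR623 (adjusted p = 0.26) that were not called. MAFF, a small MAF protein that pairs with both NRF2 and BACH1, rose by 0.44 under Deferasirox (SE 0.09, adjusted p = 0.020) and stood at 0.25 under DFO and 0.26 under OICR623. Both calls were lost without Deferasirox 1, 2 or 3 or DMSO 3, and that of BACH1 also without DMSO 2 or DMSO 4 (adjusted p from 0.058 to 0.13). NFE2L2 itself differed by 0.04, 0.06 and 0.04, and KEAP1 by 0.07 under each compound, with no call.

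Of 24 genes of the glutathione and thioredoxin systems, 4, 5 and 3 had an unadjusted p under 0.05 under DFO, Deferasirox and OICR623. The shares of all genes were 15.7%, 18% and 10.7%. Limma called 0 under DFO or OICR623, and 1 rose under Deferasirox, where 5.84% of all genes were called. This was GLRX, encoding glutaredoxin, which removes glutathione from protein thiols: 10.51, 9.36, 9.30 and 9.27 in DMSO against 9.67, 9.82 and 9.72 with Deferasirox, a rise of 0.41 (SE 0.05, adjusted p = 8.0e-04) that kept its call without any 1 array. On the middle level both Deferasirox arrays lay above both DMSO arrays, and on the low level the 1 Deferasirox array lay above the 1 DMSO array. SLC7A11, the cystine importer that feeds glutathione synthesis, differed by 0.02 under DFO (interval -0.18 to 0.22), 0.05 under Deferasirox (-0.17 to 0.27) and 0.20 under OICR623 (-0.05 to 0.46), none called.

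Of 22 genes of NADPH supply and detoxification, 2 fell under DFO, 1 fell under Deferasirox and 0 were called under OICR623. Under each compound 3 had an unadjusted p under 0.05, beside 15.7%, 18% and 10.7% of all genes under DFO, Deferasirox and OICR623. Called were 4.6%, 5.84% and 0.734% of all genes in the same order. TRIM16, a ubiquitin ligase gene, stood at 11.98, 11.64, 11.59 and 11.26 in DMSO and at 11.59, 11.35, 11.34 and 10.74 with DFO, below DMSO in each level; it fell by 0.36 (SE 0.05, limma adjusted p = 0.0017). Under Deferasirox it fell by 0.28 (SE 0.06, adjusted p = 0.015), a call lost without Deferasirox 2, Deferasirox 3 or DMSO 4 (adjusted p from 0.056 to 0.10). CBR1, a carbonyl reductase gene, fell by 0.17 under DFO (SE 0.04, adjusted p = 0.024) and lost its call without any 1 of the DFO or DMSO arrays (adjusted p from 0.052 to 0.11). Of 8 measured genes of heme and iron handling, 1, 3 and 1 had an unadjusted p under 0.05 under DFO, Deferasirox and OICR623. The shares of all genes were 15.7%, 18% and 10.7%, and 5.84% were called under Deferasirox. Limma called 0 under DFO or OICR623 and 1 under Deferasirox. It was SLC40A1, encoding the iron exporter ferroportin, which differed by -0.43 under Deferasirox (SE 0.06, adjusted p = 0.0020), by -0.17 under DFO and by -0.22 under OICR623. FTL, the ferritin light chain gene, differed by -0.09, -0.05 and -0.12 under DFO, Deferasirox and OICR623 and was not called; FTH1 was not named by a transcript cluster of its own.

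Of 15 further genes of ferroptosis defence, 1 rose under DFO, 1 fell under Deferasirox and 0 were called under OICR623. At an unadjusted p under 0.05 were 3, 4 and 3 in the same order, beside 15.7%, 18% and 10.7% of all genes. Called were 4.6%, 5.84% and 0.734% of all genes. GCH1, which starts the synthesis of the radical trap tetrahydrobiopterin, stood at 7.65, 6.65, 6.76 and 6.50 in DMSO and at 7.95, 6.98, 7.26 and 6.86 with DFO. DFO was above DMSO in every level, and the gene rose by 0.37 (SE 0.07, adjusted p = 0.012); it stood at 0.29 under Deferasirox (adjusted p = 0.058) and 0.27 under OICR623 (adjusted p = 0.31). NFS1, the desulfurase of iron-sulphur cluster assembly, fell by 0.22 under Deferasirox (SE 0.04, adjusted p = 0.0080). The calls of GCH1, NFS1 and SLC40A1, and of TRIM16 under DFO, held without any 1 array.

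Of 27 genes that favour ferroptosis, 1 rose under DFO, 2 under Deferasirox and 1 under OICR623, and 0 fell. At an unadjusted p under 0.05 were 2, 4 and 1 in the same order, beside 15.7%, 18% and 10.7% of all genes. Called were 4.6%, 5.84% and 0.734% of all genes. TFRC, the transferrin receptor whose transcript iron depletion stabilises, stood at 12.41, 11.36, 11.27 and 11.61 in DMSO, 12.59, 11.63, 11.63 and 11.70 with DFO, 11.61, 11.61 and 11.74 with Deferasirox, and 11.73 and 11.64 with OICR623. In each level it was higher on every treated array, and under OICR623 it rose by 0.32 (SE 0.06, adjusted p = 0.045), the 1 called gene of these lists there. Its calls were fragile: under DFO (0.22) it was lost without DMSO 2, DMSO 3, DFO 2 or DFO 3 (adjusted p from 0.053 to 0.066), under Deferasirox (0.23) without DMSO 2, DMSO 3 or any Deferasirox array (0.066 to 0.085), and under OICR623 without any 1 array other than DMSO 4 (0.054 to 0.23). SAT1, a spermidine acetyltransferase gene, rose by 0.18 under Deferasirox (SE 0.05, adjusted p = 0.044) and lost its call without any 1 array of DMSO, DFO or Deferasirox (0.059 to 0.16). ACSL4, which loads membranes with oxidisable fatty acids, differed by -0.04, 0.05 and 0.01 and was not called.

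GPX4 and TXNRD1 carry selenocysteine. Of 20 genes of selenoprotein synthesis and other selenoproteins, 1 fell under DFO and 0 were called under the other compounds. At an unadjusted p under 0.05 were 2, 6 and 0 under DFO, Deferasirox and OICR623, beside 15.7%, 18% and 10.7% of all genes. Called were 4.6%, 5.84% and 0.734% of all genes. SEPSECS, the enzyme gene for the last step in making the selenocysteine transfer RNA, stood at 8.45, 7.13, 7.27 and 7.57 in DMSO and 8.05, 6.96, 6.81 and 7.11 with DFO. It was lower with DFO in each level and fell by 0.37 (SE 0.06, adjusted p = 0.0027), also without any 1 array. Under Deferasirox and OICR623 it differed by -0.15 and -0.15, without a call.

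**Figure D4:**
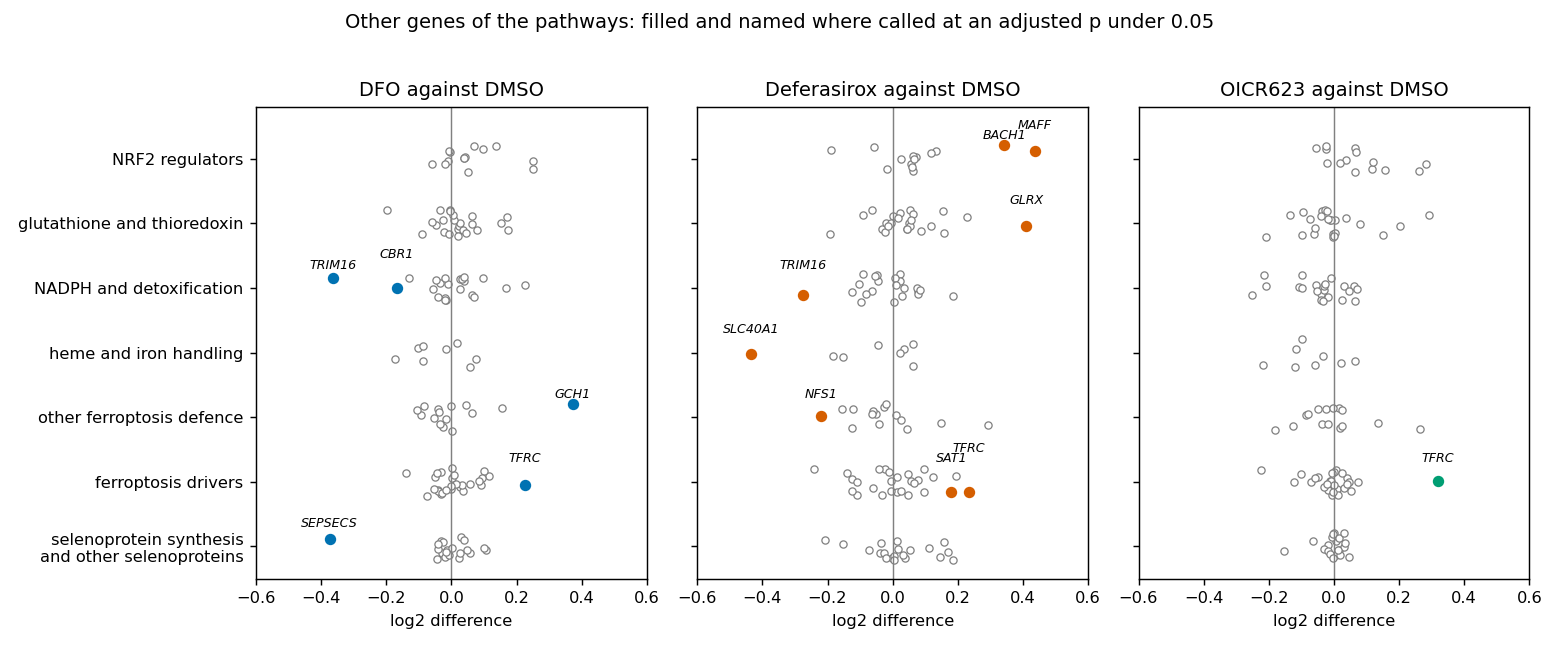
Log2 difference from DMSO (x axis) of 130 genes in 7 lists (y axis), 1 panel per compound, from limma with the level as a block; filled named points were called at an adjusted p under 0.05 and open points were not, and vertical scatter within a list has no meaning. Named points number 5, 8 and 1, on both sides of 0.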

How the data were processed

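The table deposited by the authors holds log2 signals, as its range of 1.24 to 14.92 shows, for 32321 transcript clusters on 13 arrays. The submitters' processing notes list GCRMA and limma, with neither version nor role; the build and annotation are not given in the sources used here. One gene symbol named 19158 clusters, several 1388 and none 11775; 19128 matched RefSeq by Entrez identifier. The cluster with the highest mean was kept, leaving 18404 genes. No dim genes were removed.

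Groups were compared with limma 3.58.1 (R 4.3.3) on all 13 arrays, with 1 mean per group, the level (split where neighbouring medians lay over 0.05 apart) as a block, and empirical Bayes moderation; calls needed an adjusted p under 0.05 over all genes. Intervals are 95% and per gene. The code was tested on simulated data. Members and lists were chosen with earlier results of these data known. Named were all members, 7 fixed genes (NFE2L2, KEAP1, BACH1, SLC7A11, ACSL4, TFRC, FTL) and up to 4 called genes per list by p. DDIT4 was named outside this rule. Of the marker genes, CDX2 fell under DFO (-0.49) and Deferasirox (-0.77), KRT19 rose (0.35 and 0.33), and limma called 0 of 14 fibroblast, endothelium and leukocyte markers (0, 2 and 0 at an unadjusted p under 0.05 for DFO, Deferasirox and OICR623). Same-numbered DMSO and DFO arrays deviated together from their group means (r across genes 0.66 to 0.95). Numbers 1 and 4 are also levels, so these r cannot show a pairing apart from the level. On the middle level alone r was 0.26. The pairing of same-numbered arrays was therefore only assumed, as the replicate block among the alternatives. Leaving out DMSO 1 and DFO 1 was added after the data were seen.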

Additional observations from a re-analysis of the deposited data

Results flagged for a closer look

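In groups of 4 arrays, the highest or lowest value was set against the gap to its neighbour (Dixon, 95%) for the 10 genes in DMSO and DFO, 20 groups in all, of which chance alone would mark about 1 in 20. In 9 the array of the high level stood apart. DMSO 1 did so for NQO1 (12.28, next 11.62), GCLM (8.88, next 7.97), TXNRD1 (10.23, next 9.23), GPX4 (12.64, next 11.90) and AIFM2 (9.10, next 8.23). DFO 1 did so for NQO1 (12.28, next 11.57), GCLM (8.86, next 7.99), GPX4 (12.59, next 11.92) and AIFM2 (9.10, next 8.36). Each is the only array of its group in the high level, so the array and its level cannot be told apart.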

How the results depend on the processing

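None of the 10 genes was called in any comparison under any of 24 alternatives (1390 recomputed values, lowest limma adjusted p 0.11), including the replicate block (0 called). Of these values, 138 changed sign. The alternatives are not all distinct: leaving out DMSO 1, DFO 1 or both gave the same fit. The lowest-mean row could not change the differences of these genes, which have 1 cluster each. Without a block limma called few genes of any kind, 45, 43 and 7 of 18404 under DFO, Deferasirox and OICR623, and 0 between compounds. For the other 130 pathway genes the count under DFO, 5 with the level block, was 0 without a block, with the replicate block over all arrays, with arrays centred on their median, with quantile normalization and on the 8 middle-level arrays, 8 with an intensity trend in the variance prior, and 3 to 6 leaving out 1 array. Under Deferasirox it was 8, and 0 under the first 4 of these, 4 on the middle level, 14 with the trend and 3 to 9 leaving out 1 array. Under OICR623 it was 1, and 0 under those 5, with the level as a random block and without DMSO 1 and DFO 1 (chosen after seeing the data), 2 with the trend or without the dimmest genes, and 0 to 1 leaving out 1 array. TFRC and SAT1 changed sign under Deferasirox without a block (-0.0073 and -0.053) and with the replicate block (-0.047 and -0.27), as did TFRC under OICR623 with the replicate block (-0.12); the median of all genes shifted there by -0.15, -0.24 and -0.27, and replicate numbers join arrays of different levels for these compounds. Over all 18404 genes limma called 162, 177 and 24 under DFO, Deferasirox and OICR623 with arrays centred on their median. It called 169, 186 and 25 with quantile normalization and 274, 326 and 81 on the middle level. The counts were 1206, 1514 and 338 with the trend, against 847, 1074 and 135 with the level block. With 2 OICR623 arrays, all on the middle level, its intervals are the widest, and without detection calls the signal over background is unknown.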
